A study of Mus musculus with 4 samples.

Results

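The set of inhibitory checkpoint receptors and their ligands held 10 of the 31053 genes in the deposited matrix. They were chosen by symbol. The 5 receptors were Pdcd1, Ctla4, Lag3, Tigit and Havcr2, and the 5 ligands were Cd274, Pdcd1lg2, Cd80, Cd86 and Lgals9. Each symbol was found once. The cells came from colon tumours of female C57BL/6 mice that received azoxymethane (AOM), a colon carcinogen, at 12.5 mg/kg, and then dextran sulphate sodium (DSS), which injures the colon lining, in 3 courses of 5 days. DSS was given at 2.5% in the first 2 courses and at 2% in the third, and the mice were killed 30 days after the last course. The 4 labelled samples were CD45+ and CD45- sorted cells of mice labelled EgfrΔMYL and CD45+ and CD45- sorted cells of mice labelled Egfr fl/fl, 1 sample of each, with AOM and DSS given to all 4. The labels give neither the promoter that drives the deletion nor the number or age of the mice.

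All cells stood in 1 pooled matrix. Its barcodes carry suffixes 1 to 4, here called libraries 1 to 4, and nothing in the labels or files pairs a suffix with a genotype or a sort. No genotype comparison was therefore made, and there were no replicates. Every interval is an exact 95% interval that covers counting error only, Poisson for levels and binomial for shares of cells, and no p-value is given. Levels are UMIs (unique molecular identifiers, 1 per captured transcript) of a gene per 1000000 UMIs of a class, written CPM. The kit counts transcript ends, so a level is compared only for 1 gene between classes, not between genes.

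Checkpoint receptors are brakes on lymphocytes: PD-1 (Pdcd1) binds PD-L1 (Cd274) and PD-L2 (Pdcd1lg2), and CTLA-4 (Ctla4) competes with the costimulatory receptor CD28 for CD80 and CD86 on antigen-presenting cells. LAG-3 (Lag3) binds class II molecules, TIGIT (Tigit) binds PVR and nectin-2, and TIM-3 (Havcr2) has galectin-9 (Lgals9) among its reported partners. In tumours these receptors mark regulatory T cells and chronically stimulated T cells, while the ligands are carried by myeloid, dendritic and some tumour cells.

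On GRCm38 (mm10), with the GENCODE annotation, the PD-1 ligands are neighbours on the forward strand. Cd274 spans chr19:29367455-29388095 and Pdcd1lg2 spans chr19:29410919-29471161, with a gap of 22823 bases between them. Ctla4 (chr1:60887000-60915832, forward) lies between Cd28, at a gap of 113640 bases, and Icos, at a gap of 62094 bases. Lag3 (chr6:124904361-124911705, reverse) lies 16139 bases from Cd4 on the same strand. Pdcd1 is at chr1:94038305-94052553 (reverse), Tigit at chr16:43648867-43664146 (reverse), Cd80 at chr16:38455561-38496335 (forward) and Cd86 at chr16:36603869-36666081 (reverse). Havcr2 is at chr11:46454935-46481255 (forward) and Lgals9 at chr11:78962974-78984946 (reverse).

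RefSeq promoters on GRCm38.p6 were matched for 8 of the 10 genes. Of these, 4 ligand promoters are shown as the 250 bases before the start site, 5′ to 3′ on the gene's strand. Cd274 and Cd80 had the most alike levels over the classes among pairs of the 10 genes, Pdcd1lg2 is the neighbour of Cd274, and Lgals9 was nearly absent from the cells richest in Pdcd1lg2 and Cd80. Capitals mark a match to 1 of 4 motifs searched on both strands: the interferon-response pair (GAAA, then 2 bases of any kind, then GAAA), the STAT site TTCNNNGAA, the AP-1 site TGANTCA and the NF-kB consensus. The windows are chr19:29367188-29367437 (Cd274, forward), chr19:29410669-29410918 (Pdcd1lg2, forward), chr16:38458683-38458932 (Cd80, forward) and chr11:78984925-78985174 (Lgals9, reverse).
Cd274: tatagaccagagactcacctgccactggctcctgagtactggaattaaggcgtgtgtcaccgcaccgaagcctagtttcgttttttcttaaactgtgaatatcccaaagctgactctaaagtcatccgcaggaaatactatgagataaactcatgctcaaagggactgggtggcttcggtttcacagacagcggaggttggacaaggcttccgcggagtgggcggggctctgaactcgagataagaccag
Pdcd1lg2: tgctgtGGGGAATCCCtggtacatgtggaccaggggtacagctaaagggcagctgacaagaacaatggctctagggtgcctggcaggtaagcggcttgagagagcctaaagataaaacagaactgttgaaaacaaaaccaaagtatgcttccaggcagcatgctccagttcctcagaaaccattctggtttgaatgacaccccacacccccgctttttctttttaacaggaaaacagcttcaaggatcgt
Cd80: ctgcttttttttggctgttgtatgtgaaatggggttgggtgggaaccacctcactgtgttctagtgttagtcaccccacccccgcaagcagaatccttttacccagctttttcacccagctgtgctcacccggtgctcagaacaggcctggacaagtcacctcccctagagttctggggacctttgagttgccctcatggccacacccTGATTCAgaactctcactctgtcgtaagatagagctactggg
Lgals9: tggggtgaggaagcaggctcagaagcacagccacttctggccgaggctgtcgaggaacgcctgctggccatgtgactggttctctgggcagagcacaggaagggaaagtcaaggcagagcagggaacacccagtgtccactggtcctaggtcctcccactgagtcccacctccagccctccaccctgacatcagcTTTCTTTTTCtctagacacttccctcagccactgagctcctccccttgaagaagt
The Cd274 window held no match. The Pdcd1lg2 window held the NF-kB consensus at bases -244 to -235, the Cd80 window the AP-1 site at -42 to -36, and the Lgals9 window the interferon-response pair at -55 to -46, on the opposite strand. Among all 32851 promoters of that length, 3.9% held the NF-kB consensus, 6.75% the AP-1 site, 2.98% the interferon-response pair and 7.02% the STAT site. A match is a run of letters and was not tested as a binding site.

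Of 18026 barcodes with 129529250 UMIs, 14198 passed the limits on UMIs, genes and mitochondrial RNA, 625 of these were removed as probable doublets, and 13573 cells were kept. Libraries 1 to 4 kept 591, 1683, 4353 and 6946 cells. Libraries 1 and 2 held most epithelial-like cells, and libraries 3 and 4 most T and myeloid cells. Among kept cells, 14 barcodes of 16 bases occurred in more than 1 library. The 18 named classes held 10670 cells, and a name with "-like" rests on rebuilt clusters and marker lists. Foxp3 was seen in 77.7% of Foxp3-positive CD4-like cells, Cd8b1 in 79.0% of cytotoxic CD8-like cells, C1qa in 97.9% of C1q-positive macrophage-like cells and Ccr7 in 93.3% of migratory-DC-like cells. The 10 genes were left out of the genes used for clustering. The classes still came from the counts of the same cells, and Ctla4 was among the leading genes of the cluster that held most Foxp3-positive cells. All differences between classes are therefore descriptions.

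Ctla4 was highest in regulatory-type T cells and was also present in the other activated T-cell classes. Its level was 1461 CPM (interval 1416 to 1507) in the 546 Foxp3-positive CD4-like cells, and 88.6% of them held a UMI. Of type 3 T-like cells, 52.1% held an Il17a UMI and 8.53% an Il22 UMI. These cells followed for Ctla4 with 888 CPM (840 to 938). Activated other CD4-like cells had 489 CPM (457 to 524) and cytotoxic CD8-like cells 203 CPM (173 to 237). None of these intervals overlapped its neighbour's. Naive-like CD4 cells had 67.2 CPM, NK-like cells 61.0 CPM and naive-like CD8 cells 40.2 CPM. In Foxp3-positive cells Ctla4 stood at 1508 CPM in library 3 and at 1432 CPM in library 4. In epithelial-like cells 0.519% held a Ctla4 UMI, at a median of 11072 UMIs per cell against 4413.5 in Foxp3-positive cells. Libraries 1 and 2 held 263 and 833 of the 1155 epithelial-like cells, but 1 and 2 of the Foxp3-positive cells. The share therefore does not gauge free RNA in libraries 3 and 4.

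Pdcd1 stood at similar levels in 3 classes of activated T cells. The levels were 185 CPM (156 to 218) in cytotoxic CD8-like cells, 175 CPM (154 to 198) in type 3 T-like cells and 167 CPM (152 to 184) in Foxp3-positive cells, and neighbouring intervals overlapped. Which class led changed with the libraries: without library 3 type 3 T-like cells had 207 CPM and cytotoxic CD8-like cells 200.5 CPM, and without library 4 Foxp3-positive cells had 173 CPM and the 49 cytotoxic CD8-like cells left 142 CPM. Activated other CD4-like cells had 130 CPM and NK-like cells 51.2 CPM. The 2 naive-like classes and every myeloid, B-cell and epithelial class had at most 5.22 CPM. C1q-positive macrophage-like cells held 0 Pdcd1 UMIs, which allows a level of up to 0.285 CPM.

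Havcr2 crossed lineages. Type 3 T-like cells had 237 CPM (213 to 263), cDC1-like cells 225 CPM (211 to 239), cDC2-like cells 195 CPM (179 to 211) and C1q-low monocyte-like cells 179 CPM (172 to 187), each overlapping the next. cDC1 and cDC2 are the conventional dendritic cells that present antigen mainly to CD8 and CD4 T cells. Foxp3-positive cells had 152 CPM, with 109 CPM in library 3 and 177 CPM in library 4, and C1q-positive macrophage-like cells had 107 CPM. In the other named T-cell classes the gene was close to absent: 8.88 CPM in cytotoxic CD8-like cells, 1.76 CPM in activated other CD4-like cells and 1.68 CPM in naive-like CD8 cells. After cells with 5 or more UMIs of another lineage's markers were left out, the level in type 3 T-like cells was 247 CPM in the 165 cells that remained of 211.

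Among the named classes Lag3 was highest outside the T cells. Plasmacytoid dendritic cells (pDC), the main producers of type I interferon, had 252 CPM (224 to 283), and 81.5% of the 119 cells held a UMI. Foxp3-positive cells followed with 80.6 CPM (70.3 to 92.0) and type 3 T-like cells with 48.6 CPM (38.0 to 61.3). C1q-positive macrophage-like cells had 31.1 CPM (27.9 to 34.7), with 44.5 CPM in library 3 and 24.5 CPM in library 4. The pDC level was 217 CPM in library 3 and 272 CPM in library 4. The 6 T-cell markers summed to 48.9 CPM in pDC-like cells with 5 of 6 detected. They summed to 8.73 CPM in C1q-positive macrophage-like cells and to 5194 CPM in Foxp3-positive cells. The part of T-cell RNA in these Lag3 levels was not tested. Without library 4 the order held, at 207.5 CPM in the 35 pDC-like cells left and 88.4 CPM in Foxp3-positive cells.

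Tigit held few UMIs in every named class. Foxp3-positive cells had 13.6 CPM (9.54 to 18.7) from 37 UMIs, with 13 CPM in library 3 and 13.9 CPM in library 4. NK-like cells had 5.90 CPM from 3 UMIs and type 3 T-like cells 4.79 CPM from 7 UMIs. The intervals of Foxp3-positive and NK-like cells overlapped. Cytotoxic CD8-like cells held 1 Tigit UMI and naive-like CD8 cells 0.

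**Figure D1:**
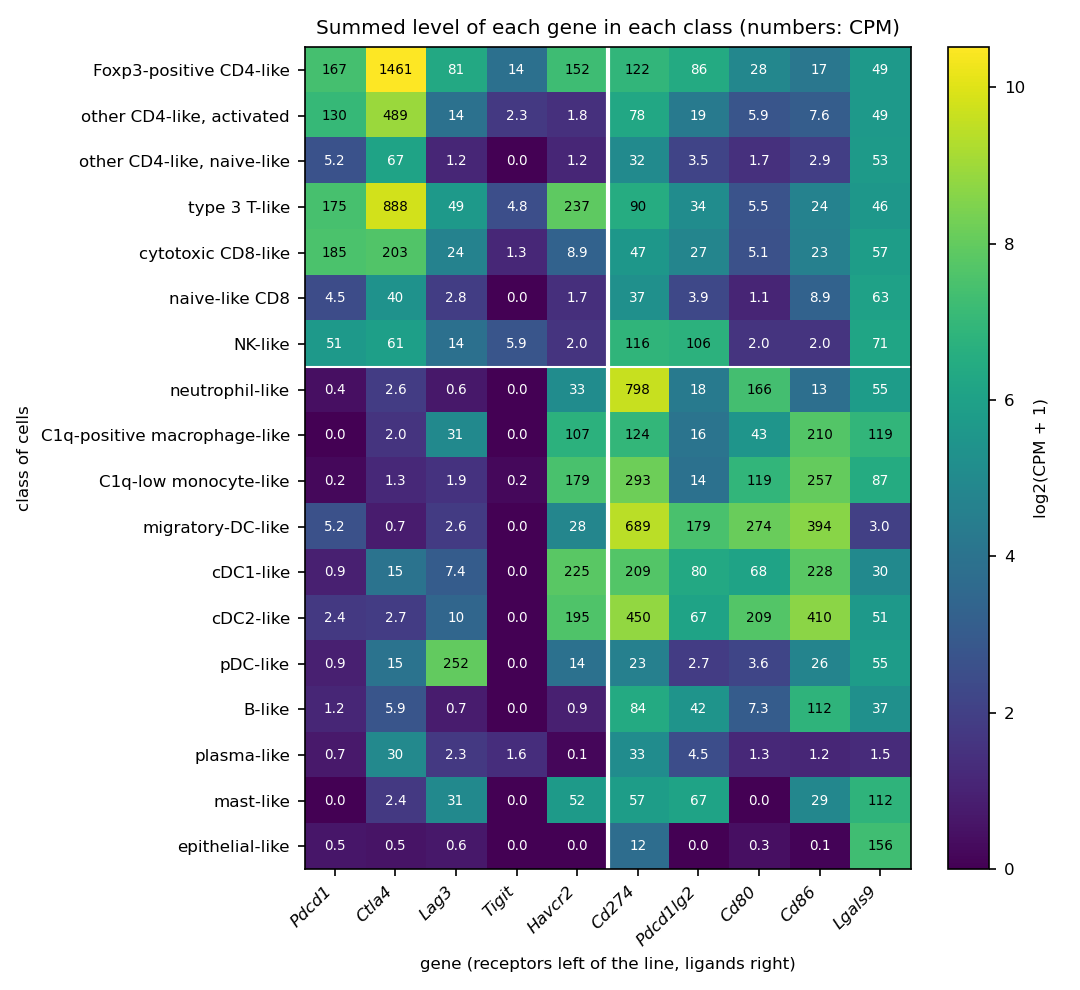
Heat map of the level of each gene (columns, receptors left and ligands right of the line) in each of the 18 named classes (rows). Numbers in the cells are CPM over the class and colour is log2(CPM + 1). Ctla4 peaks at 1461 CPM in Foxp3-positive cells, Lag3 at 252 CPM in pDC-like cells, Cd274 at 798 CPM in neutrophil-like cells, and Lgals9 drops to 2.95 CPM in migratory-DC-like cells.

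Among the named classes Cd274, which encodes PD-L1, was highest in neutrophils and mature dendritic cells. Neutrophil-like cells had 798 CPM (779 to 818) and 65.7% of the 2640 cells held a UMI at a median of 2863.5 UMIs. Migratory-DC-like cells, which carry antigen to lymph nodes, had 689 CPM (658 to 721), cDC2-like cells 450 CPM (426 to 474) and C1q-low monocyte-like cells 293 CPM (283 to 303). cDC1-like cells had 209 CPM (196 to 223) and C1q-positive macrophage-like cells 124 CPM (118 to 131). T cells carried it as well, with 122 CPM in Foxp3-positive cells and 31.9 CPM in naive-like CD4 cells. Epithelial-like cells had the lowest level of the 18 classes, 12.5 CPM (10.8 to 14.4), in 5.71% of cells.

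The Cd274 level differed between libraries. In neutrophil-like cells it was 465 CPM in library 1, 947 CPM in library 2, 526 CPM in library 3 and 905 CPM in library 4. Migratory-DC-like cells had 507 CPM in library 3 and 820 CPM in library 4, and cDC2-like cells had 204 CPM in library 3 and 523 CPM in library 4. Libraries 2 and 4 were thus high in neutrophils, and library 4 was above library 3 in all 6 myeloid and dendritic classes named above. No label or file pairs these libraries with a genotype or a sort.

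Among the named classes Pdcd1lg2, which encodes PD-L2, was highest in migratory-DC-like cells and was seen in several lineages. Migratory-DC-like cells had 179 CPM (164 to 196), with 124 CPM in library 3 and 218 CPM in library 4. NK-like cells had 106 CPM (79.8 to 139), Foxp3-positive cells 85.7 CPM (75.1 to 97.4), cDC1-like cells 80.3 CPM (72.2 to 89.1) and cDC2-like cells 67.3 CPM (58.3 to 77.3), each overlapping the next. Neutrophil-like cells, the class richest in Cd274, had 18.5 CPM of Pdcd1lg2, C1q-positive macrophage-like cells 15.6 CPM and C1q-low monocyte-like cells 14 CPM. Mast-like cells had 66.59 CPM, B-like cells 42.45 CPM and type 3 T-like cells 33.55 CPM. Epithelial-like cells held 0 Pdcd1lg2 UMIs.

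Cd80 and Cd86, the paired ligands of CD28 and CTLA-4, parted in neutrophils. Cd80 was 274 CPM (255 to 294) in migratory-DC-like cells, 209 CPM (193 to 226) in cDC2-like cells, 166 CPM (158 to 175) in neutrophil-like cells and 119 CPM (113 to 126) in C1q-low monocyte-like cells. Cd86 was 410 CPM (387 to 433) in cDC2-like cells and 394 CPM (371 to 418) in migratory-DC-like cells, which overlapped, and 13.2 CPM (10.9 to 15.9) in neutrophil-like cells. B-like cells had 112 CPM of Cd86 and 7.34 CPM of Cd80. C1q-low monocyte-like cells had 257 CPM, cDC1-like cells 228 CPM and C1q-positive macrophage-like cells 210 CPM of Cd86. Cd86 in migratory-DC-like cells was 237 CPM in library 3 and 502 CPM in library 4, and in cDC2-like cells 281 CPM in library 3 and 448 CPM in library 4. Without library 3, migratory-DC-like cells led at 498 CPM.

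Lgals9, which encodes galectin-9, alone among the 10 genes had its highest level in epithelial-like cells. They had 156 CPM (150 to 163), with 146, 162, 118 and 108 CPM in libraries 1 to 4. C1q-positive macrophage-like cells had 119 CPM (113 to 126), mast-like cells 112 CPM (82.1 to 149) and C1q-low monocyte-like cells 86.8 CPM (81.5 to 92.4). The T-cell classes lay between 45.9 and 63.1 CPM. Migratory-DC-like cells had 2.95 CPM (1.27 to 5.81) from 8 UMIs, with 2.77 CPM in library 3 and 3.13 CPM in library 4, and plasma-like cells had 1.47 CPM.

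Set as receptor and ligand pairs, the classes richest in each partner differed. Pdcd1 peaked in T-cell classes, Cd274 in neutrophil-like cells and Pdcd1lg2 in migratory-DC-like cells. Ctla4 peaked in Foxp3-positive cells while Cd80 and Cd86 peaked in migratory-DC-like and cDC2-like cells. Cd28, the stimulatory receptor for the same ligands, was highest in activated other CD4-like cells at 505 CPM (472 to 540), with 281 CPM in Foxp3-positive cells. For Tigit, Pvr was highest in migratory-DC-like cells at 88.1 CPM, then cDC2-like cells at 69.0 CPM, and Nectin2 was highest in epithelial-like cells at 84.2 CPM. Cd226, the activating competitor of Tigit, stood at 115 CPM in type 3 T-like cells and 110 CPM in cytotoxic CD8-like cells. For Lag3, the class II gene H2-Ab1 was 8789 CPM in C1q-positive macrophage-like cells, which carried Lag3 themselves, and 7185 CPM in cDC1-like cells. Fgl1, another reported ligand of LAG-3, reached 2.54 CPM at most, in epithelial-like cells.

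For 6 pairs of classes all genes were compared, and a gene was counted as higher or lower when its log2 ratio of CPM + 1 passed 2-fold and the higher class held at least 10 UMIs. Of the 10 genes, 9 were higher and 0 lower in Foxp3-positive CD4-like cells than in other CD4-like cells, where 13.6% of 10003 genes were higher and 4.73% lower. The median log2 ratio was 2.49 over the 10 genes and 0.24 over all genes. Havcr2 was 152 CPM in Foxp3-positive cells against 1.46 CPM in other CD4-like cells, a log2 ratio of 5.96. Lag3 had a log2 ratio of 3.25, Pdcd1lg2 2.81, Tigit 2.75, Cd80 2.59, Ctla4 2.39, Cd86 1.55, Pdcd1 1.30 and Cd274 1.14. Lgals9 was 48.7 CPM in Foxp3-positive cells and 51.0 CPM in other CD4-like cells.

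Other CD4-like cells joined activated and naive-like cells, and 319 of the 356 naive-like cells came from library 3. Against activated cells alone, the log2 ratio was 0.36 for Pdcd1 and 0.64 for Cd274, both below 2-fold, 1.58 for Ctla4 and 2.44 for Lag3. Without library 3, 7 genes were higher, and Pdcd1 had 0.44 and Cd274 0.55. With coarser sub-clusters 5 genes were higher, Havcr2 (0.64), Ctla4 (0.89) and Tigit (0.81) were below 2-fold and Lag3 turned its direction (-0.81). With cells gated by their own Cd4 and Foxp3 UMIs 4 genes were higher, and Havcr2 (0.89), Lag3 (0.97) and Pdcd1 (0.68) were among those below 2-fold.

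Among 11 further inhibitory or costimulatory receptors in the matrix, 10 had enough UMIs, and 3 were higher and 2 lower in Foxp3-positive cells. Klrg1, an inhibitory lectin, was 285 CPM against 0.582 CPM in other CD4-like cells, and Cd200r1, the receptor of CD200, was 71.1 against 14.6 CPM. Cd160 was 0.733 against 7.57 CPM and Btla 17.9 against 39.9 CPM. Of 19 further ligands, 11 had enough UMIs, and 1 was higher (Cd48, 222 against 92.0 CPM) and 1 lower (Pvr, 18.3 against 37.9 CPM). Of 16 exhaustion and inhibitory signalling genes, 9 were higher and 2 lower. Ikzf2, which encodes Helios, was 1665 against 123 CPM and Prdm1, which encodes Blimp-1, 97.4 against 11.1 CPM, while Tcf7, a factor of naive and memory cells, was 33.7 against 544 CPM and Eomes 0.733 against 3.49 CPM. Ikzf2 was a marker used to name Foxp3-positive cells and Tcf7 to name naive-like cells, so their differences were partly set by the naming. Of 16 interferon and NF-kB genes, 3 were higher and 2 lower. Il10 was 71.8 against 2.62 CPM, while Ifng was 2.93 against 14.8 CPM and Ifngr2 26.0 against 74.3 CPM.

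In cytotoxic CD8-like over naive-like CD8 cells, 5 of the 10 genes were higher and 0 lower, where 12.8% of 8307 genes were higher and 5.37% lower. The median log2 ratio was 2.31 over the 7 of the 10 genes with enough UMIs and 0.27 over all genes. Pdcd1 was 185 CPM in the 143 cytotoxic cells against 4.47 CPM in the 281 naive-like cells, a log2 ratio of 5.09. Lag3 was 24.1 against 2.79 CPM, Pdcd1lg2 26.7 against 3.91 CPM, Ctla4 203 against 40.2 CPM and Cd86 22.9 against 8.93 CPM. Havcr2, with 7 and 3 UMIs, was below the minimum. Naive-like CD8 cells came almost all from library 3, which held 258 of the 281. They include sub-cluster T14, where Ifit3 and Rsad2 were among the leading genes. Of its 29 cells 8 held only Cd8 UMIs, 6 only Cd4 UMIs and 15 neither. Without library 3 the log2 ratio was 1.75 for Pdcd1 and 0.92 for Ctla4, and without library 4 only 2 of the 10 genes were counted higher.

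Of the further receptors 5 were higher in cytotoxic CD8-like cells and 0 lower, led by Klrg1 (16.5 against 0.558 CPM) and Lair1, a collagen receptor (20.3 against 5.03 CPM). Of the further ligands 2 were higher and 0 lower, Lgals3 (227 against 7.26 CPM) and Cd48 (275 against 79.3 CPM). Of the exhaustion genes 5 were higher and 1 lower, with Prdm1 at 30.5 against 1.12 CPM, Entpd1 (CD39, which degrades extracellular ATP) at 33.0 against 2.79 CPM, and Tcf7 at 197 against 494 CPM. Tcf7 was also a marker used to name the naive-like cells. Of the interferon and NF-kB genes 4 were higher and 1 lower, with Ifng at 102 against 1.68 CPM, Tnf at 20.3 against 4.47 CPM and Ifngr2 at 5.08 against 70.9 CPM.

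C1q-positive macrophage-like cells differed from C1q-low monocyte-like cells in 3 of the 10 genes. Lag3 was higher, at 31.1 against 1.94 CPM (log2 ratio 3.45), and Cd80 (43.4 against 119 CPM, -1.44) and Cd274 (124 against 293 CPM, -1.23) were lower. Among 11674 genes, 17.0% were higher and 6.18% lower. The median log2 ratio was -0.08 over the 8 genes with enough UMIs and 0.32 over all genes. Of the further receptors 1 was higher (Lair1, 316 against 102 CPM) and 1 lower (Btla, 0.664 against 3.0 CPM). Of the further ligands 5 were higher and 3 lower, with H2-Eb1 at 9741 against 3212 CPM, H2-Ab1 at 8789 against 3416 CPM, Ceacam1, a reported ligand of TIM-3, at 4.46 against 36.2 CPM and Pvr at 19.4 against 61.0 CPM. Of the exhaustion genes 1 was higher (Ikzf2, 10.9 against 2.65 CPM) and 3 lower, with Nr4a2 at 23 against 128 CPM and Nt5e at 8.07 against 31.8 CPM. Of the interferon and NF-kB genes 1 was higher (Cmtm4, 17.8 against 2.38 CPM) and 2 lower, the kinase Jak2 at 35.6 against 152 CPM and Nfkb1 at 141 against 315 CPM.

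Migratory-DC-like cells had Cd274, Cd80 and Cd86 within 2-fold of the cDC2 level and little Lgals9 and Havcr2. Against cDC2-like cells, 1 of the 10 genes was higher, Pdcd1lg2 (179 against 67.3 CPM, log2 ratio 1.40), and 3 were lower: Lgals9 (2.95 against 51.1 CPM, -3.72), Havcr2 (27.7 against 195 CPM, -2.77) and Lag3 (2.58 against 10.1 CPM, -1.63). Among 9497 genes, 13.6% were higher and 15.8% lower, and the median log2 ratio was 0.17 over the 8 of the 10 genes with enough UMIs and -0.01 over all genes. Cd274 had a log2 ratio of 0.61, and 1.29 without library 4. Of the further receptors 2 were higher, Icos (7.74 against 1.68 CPM) and Btla (60.9 against 27.9 CPM), and 4 lower, with Cd200r1 at 0.369 against 13.1 CPM and Pilra at 1.84 against 21.9 CPM. Of the further ligands 3 were higher and 4 lower, with Cd200 at 882 against 36.7 CPM, Nectin2 at 28.8 against 11.4 CPM, H2-Ab1 at 2161 against 6353 CPM and Cd48 at 50.9 against 151 CPM. Of the exhaustion genes 3 were higher and 7 lower. Tcf7 was 110 CPM in migratory-DC-like cells and 0 in cDC2-like cells, Id2 811 against 135 CPM, Entpd1 5.53 against 39.7 CPM and Nfatc1 6.64 against 44.4 CPM. Of the interferon and NF-kB genes 1 was higher (Stat3, 451 against 193 CPM) and 3 lower, with Tnf at 40.9 against 250 CPM and Ifngr1 at 68.2 against 379 CPM.

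Against cDC1-like cells, 4 of the 10 genes were higher in migratory-DC-like cells and 4 lower, where 12.9% of 10242 genes were higher and 22.2% lower. Cd80 was 274 against 67.5 CPM (log2 ratio 2.01), Cd274 689 against 209 CPM (1.72) and Pdcd1lg2 179 against 80.3 CPM (1.15). The fourth, Pdcd1, rested on 14 UMIs against 4. Lower were Ctla4 (0.738 against 15.1 CPM, from 2 and 67 UMIs), Lgals9 (2.95 against 30.4 CPM, -2.99), Havcr2 (27.7 against 225 CPM, -2.98) and Lag3 (2.58 against 7.43 CPM, -1.24). The median log2 ratio was 0.79 over the 9 of the 10 genes with enough UMIs and -0.21 over all genes. Of the further receptors 1 was higher (Icos, 7.74 against 2.70 CPM) and 5 lower, with Cd200r1 at 0.369 against 22.1 CPM and Pilra at 1.84 against 18.9 CPM. Of the further ligands 5 were higher and 4 lower, with Cd200 at 882 against 33.3 CPM, Nectin2 at 28.8 against 2.70 CPM, Lgals3 at 341 against 1392 CPM and Cd48 at 50.9 against 198 CPM. Of the exhaustion genes 3 were higher and 6 lower, with Tcf7 at 110 against 0.675 CPM, Prdm1 at 62.7 against 7.88 CPM, Ptpn22 at 1.84 against 37.1 CPM and Entpd1 at 5.53 against 44.3 CPM. Of the interferon and NF-kB genes 6 were higher and 1 lower, with Cd40, which receives help from T cells, at 256 against 59.6 CPM, Stat3 at 451 against 107 CPM and Ifngr1 at 68.2 against 353 CPM. The comparisons with cDC2-like and cDC1-like cells share the migratory-DC-like cells.

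Neutrophil-like cells had more Cd274 and far less Cd86 than macrophage- and monocyte-like cells pooled. Cd274 was 798 against 212 CPM (log2 ratio 1.91). Cd86 was 13.2 against 234 CPM (-4.05), Lag3 0.595 against 16.0 CPM (-3.42) and Havcr2 33.5 against 144 CPM (-2.08). Cd80 was 166 against 82.7 CPM, just below 2-fold. So 1 of the 10 genes was higher and 3 lower, where 9.04% of 12443 genes were higher and 55.3% lower. The median log2 ratio was -0.29 over the 8 of the 10 genes with enough UMIs and -1.20 over all genes. Of the further receptors 0 were higher and 2 lower, Lair1 (26.2 against 206 CPM) and Cd200r1 (3.69 against 17 CPM). Of the further ligands 0 were higher and 9 lower, with H2-Aa at 159 against 7509 CPM and H2-Eb1 at 135 against 6359 CPM. Of the exhaustion genes 3 were higher and 5 lower, with Entpd1 at 697 against 150 CPM, Nr4a3 at 249 against 64.7 CPM, Nr4a2 at 15.4 against 77.2 CPM and Id2 at 54.1 against 240 CPM. Of the interferon and NF-kB genes 4 were higher and 4 lower, with Tnf at 995 against 245 CPM, Irf1, a factor downstream of interferon, at 792 against 232 CPM, Cd40 at 2.26 against 56.7 CPM and Cmtm4 at 0.953 against 9.79 CPM. Cmtm6, which keeps PD-L1 on the cell surface, was 167 CPM in neutrophil-like cells and 79.1 CPM in macrophage- and monocyte-like cells.

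**Figure D2:**
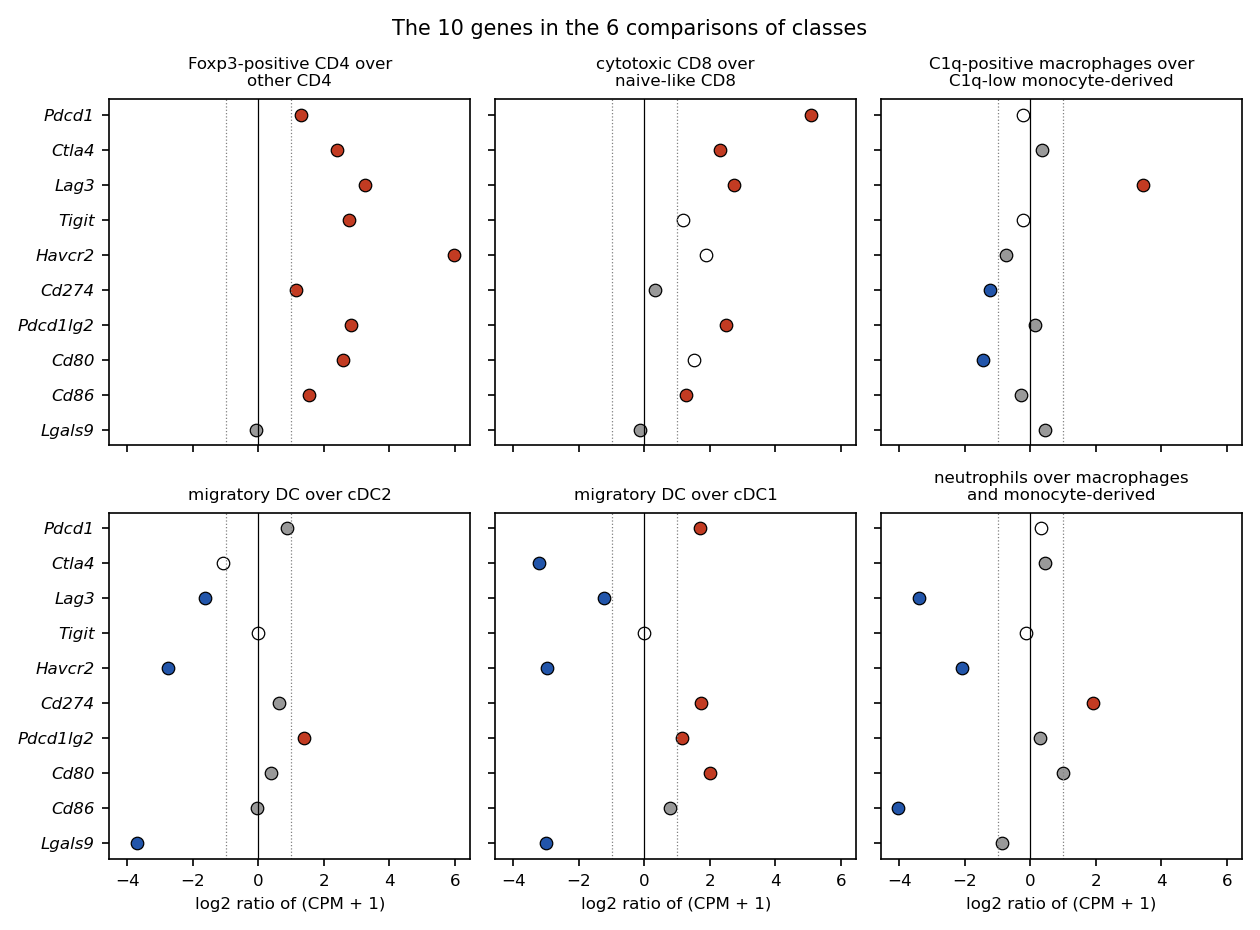
Log2 ratio of (CPM + 1) of each of the 10 genes (rows) in the 6 comparisons of classes (panels). Red points were counted higher and blue points lower, grey points passed the UMI minimum but not 2-fold, open points had too few UMIs, and dotted lines mark 2-fold. The first panel has 9 red points, with Havcr2 at 5.96, and the panel of neutrophils has Cd274 at 1.91 and Cd86 at -4.05.

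Within Foxp3-positive cells, sub-clusters differed in which receptors they carried. Ctla4 was 2152 CPM (2016 to 2296) in sub-cluster T21, 1753 CPM in T7, 1594 CPM in T20 and 761 CPM (705 to 821) in T12. Havcr2 split them differently: 305 CPM in T20 and 299 CPM in T21, against 102 CPM in T12 and 33.0 CPM in T7. Lag3 was 273 CPM (226 to 328) in the 64 cells of T21 and 113 CPM in T20. Gzmb, a cytotoxic protease, reached 1309 CPM in T21, against 602 CPM in T7. T7 thus had high Ctla4 with little Havcr2 or Lag3, and T21 had all 3 of these genes but little Pdcd1. Without cells bearing another lineage's markers, Pdcd1 was 15.1 CPM (5.55 to 32.9) from 6 UMIs in T21. In T20, without such cells, it was 272 CPM (229 to 320).

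The 28 cells of sub-cluster T11 had the highest Pdcd1, Lag3 and Havcr2 of the T-cell sub-clusters given here. Pdcd1 was 496 CPM (396 to 614), Lag3 584 CPM (475 to 710), Havcr2 473 CPM (376 to 588) and Ctla4 280 CPM (207 to 372). Tox, a factor of chronically stimulated T cells, was 269 CPM there. Of these cells 19 held only Cd4 UMIs and 6 only Cd8 UMIs, so they were given no name and stand in no comparison. Of the 28, 25 came from library 4. In type 3 T-like cells, sub-cluster T16 had 998 CPM of Ctla4, 57.2 CPM of Pdcd1 and 263 CPM of Havcr2, and sub-cluster T6 had 732 CPM of Ctla4, 343 CPM of Pdcd1 and 200 CPM of Havcr2. The gamma-delta T-cell genes Trdv4, Trdc and Cd163l1 were among the leading genes of T6.

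Cd274 also varied inside the myeloid classes. Neutrophil cluster N10, of 229 cells, had 1354 CPM (1261 to 1451), N13 974 CPM (946 to 1003) and N12, which expressed the granule gene Camp at 813 CPM, 440 CPM (418 to 464). N10 also had 124 CPM of Pdcd1lg2, but less Cd80 (78.0 CPM) than N13 (199 CPM). M5, an unnamed sub-cluster of macrophage and dendritic cells, had 958 CPM (925 to 991) of Cd274 in 315 cells, above the class level of neutrophil-like cells. Haemoglobin genes led it, with Hbb-bs at 1887 CPM from 17 of its cells, and Arg1 stood at 2269 CPM in 68.6% and Nos2 at 420.5 CPM in 43.2% of its cells. Its neutrophil markers summed to 1430 CPM, against 394 CPM in C1q-low monocyte-like cells, and its erythroid markers to 3664 CPM, against 6.8 CPM. The part of either list in that level was not tested. Counting M5 among C1q-low cells lowered the log2 ratio of neutrophils over macrophage- and monocyte-like cells to 1.34. Among migratory-DC-like cells, M14 had 898 CPM of Cd274 and 575 CPM of Cd86, and M3 had 463 CPM of Cd274 and 211 CPM of Cd86.

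**Figure D3:**
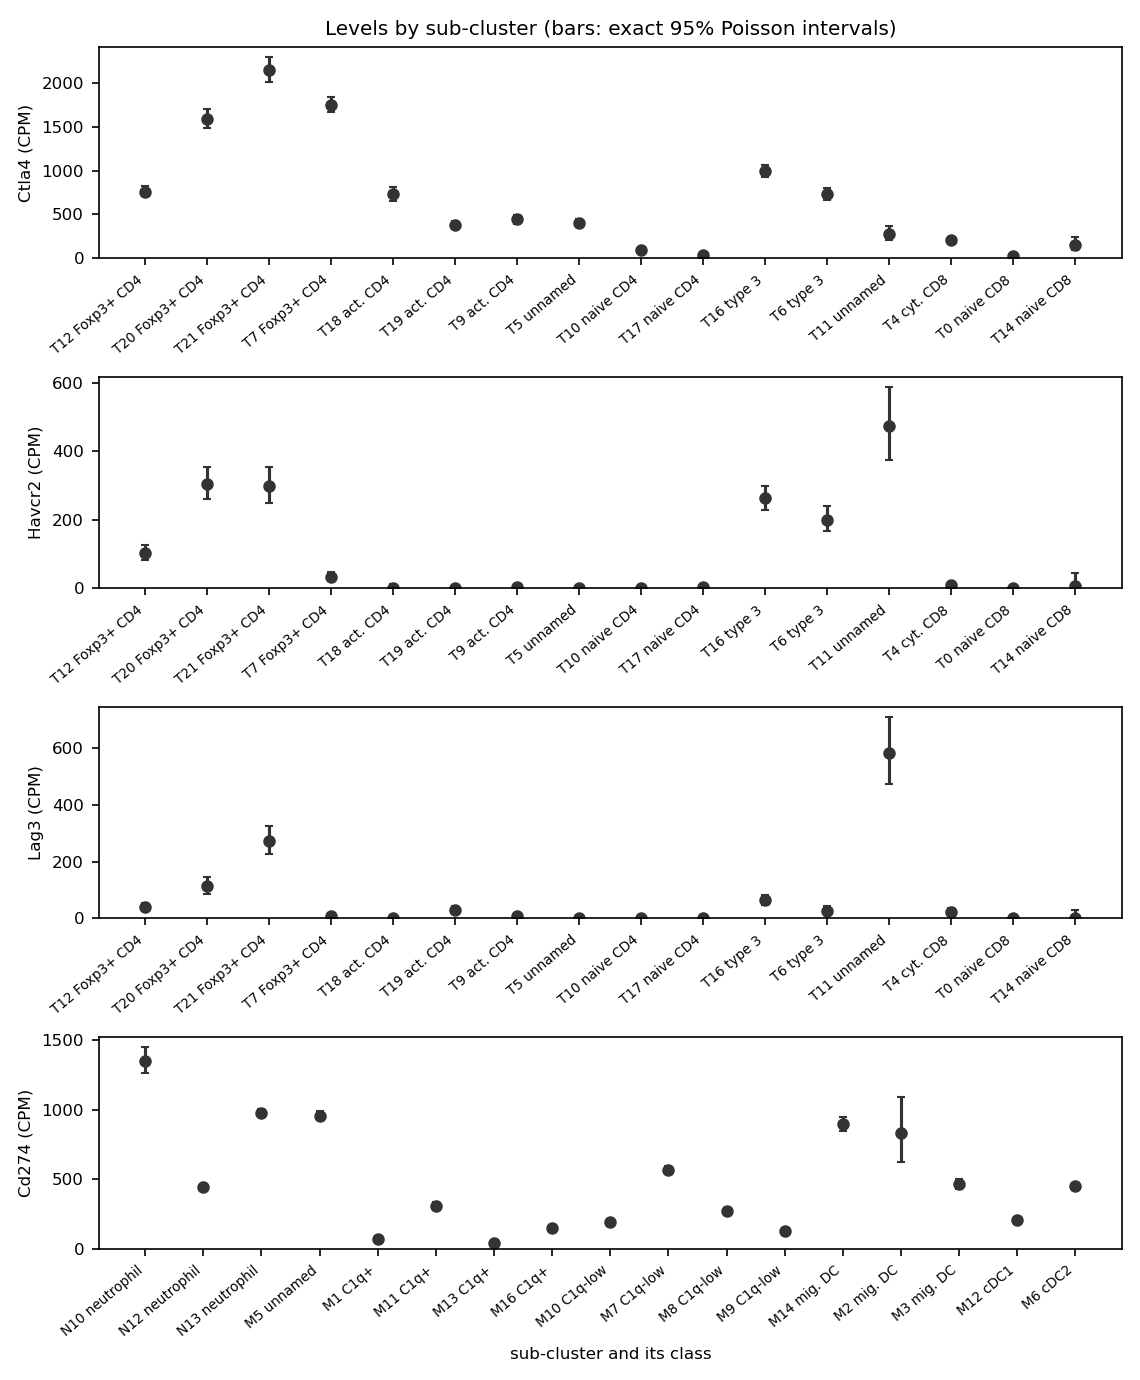
Levels in CPM (points, with exact 95% Poisson intervals as bars) of Ctla4, Havcr2 and Lag3 in T-cell sub-clusters and of Cd274 in neutrophil clusters and myeloid sub-clusters, each labelled with its class. T11 stands highest for Havcr2 and Lag3 at 473 and 584 CPM, T21 for Ctla4 at 2152 CPM and N10 for Cd274 at 1354 CPM.

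Several receptors in 1 cell were common in the activated T-cell classes. At least 2 of the 5 receptors were seen in 59.7% (52.8 to 66.4) of type 3 T-like cells, 52.2% (47.9 to 56.5) of Foxp3-positive cells, 30.8% (23.3 to 39.0) of cytotoxic CD8-like cells and 20.4% (16.6 to 24.7) of activated other CD4-like cells. The share was 1.07% in naive-like CD8 cells and 0.281% in naive-like CD4 cells. With each cell thinned to 1000 UMIs the shares were 19.1% in type 3 T-like, 19.8% in Foxp3-positive, 5.04% in cytotoxic CD8-like and 4.71% in activated other CD4-like cells.

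A pair of receptors was counted as co-detected when the share of cells with the second receptor was at least 2-fold higher among cells with the first than among cells without it. Over 4 T-cell classes, 18 pairs had at least 20 cells with each receptor and 20 without the first, and 8 of these were counted. After thinning 1 of 10 remained above 2-fold, Havcr2 with Lag3 in Foxp3-positive cells. There Lag3 was seen in 29.2% (22.6 to 36.7) of 171 cells with Havcr2 against 8.0% (5.46 to 11.2) of 375 cells without it, and after thinning in 13.6% (6.04 to 25) against 3.70% (2.21 to 5.79). The pair passed in library 3, at 27.3% against 8.90%, and in library 4, at 30.2% against 7.49%. In type 3 T-like cells the same pair gave 30.3% against 2.94% at full depth and 8.11% against 4.79% after thinning, where the intervals overlapped. Pdcd1 was seen in 57.4% of cytotoxic CD8-like cells with Ctla4 against 26.8% of those without it, and after thinning in 16.7% against 15.7%. In Foxp3-positive cells Pdcd1 was not seen more often with Ctla4: 32.2% (28.1 to 36.6) of cells with Ctla4 held it against 37.1% (25.2 to 50.3) of cells without.

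Both PD-1 ligands shared cells in conventional dendritic cells. In cDC1-like cells Pdcd1lg2 was seen in 60.3% (51.9 to 68.3) of cells with Cd274 against 20.4% (12.8 to 30.1) of cells without it, at median depths of 17768.5 and 17769 UMIs. After thinning the shares were 24.4% (12.4 to 40.3) and 5.61% (2.84 to 9.82). In cDC2-like cells they were 42.0% against 6.56%, and 13% against 1.65% after thinning. Migratory-DC-like cells gave 60.6% against 20.9%, but cells with Cd274 had a median of 9902 UMIs and cells without it 1192, and after thinning the shares were 13.4% and 12.2%. C1q-positive macrophage-like cells gave 19.3% against 7.6% and C1q-low monocyte-like cells 13.1% against 3.89%, at full depth. After thinning only 3 C1q-positive and 16 C1q-low cells held Pdcd1lg2, below the minimum of 20, so no direction is read from them. The shares were 0% against 0.409% in C1q-positive and 0.901% against 1.81% in C1q-low cells, with overlapping intervals. In neutrophil-like cells the shares were 5.31% against 2.32%, and 2.66% against 1.10% after thinning. In all, 15 of 85 pairs over 6 classes, with Havcr2 added to the 5 ligands, were counted at full depth and 3 of 53 after thinning: Cd274 with Pdcd1lg2 in cDC1-like and neutrophil-like cells, and Havcr2 with Pdcd1lg2 in neutrophil-like cells. In neutrophil-like cells the thinned intervals overlapped for Cd274 (1.78 to 3.83 against 0.619 to 1.81). They also overlapped for Havcr2, where 4 cells held the pair (1.28 to 11.5 against 1.20 to 2.29). At full depth the Cd274 pair in neutrophil-like cells gave 6.01% against 1.08% in library 3. In library 4 it gave 5.15% against 2.66%, below 2-fold. Where too few thinned cells held a gene, as for Pdcd1lg2 in cDC2-like cells, a pair was not counted. At full depth a pair could not reach 2-fold where most cells without the first gene already held the second. In cDC1-like cells Cd86 was seen in 91.1% of cells with Cd274 and 78.5% of cells without it. Each pair was read in a single order, so the counts depend on that order and on this ceiling. Cd80 went with Cd274 in cDC1-like cells, at 67.8% against 28.0%.

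**Figure D4:**
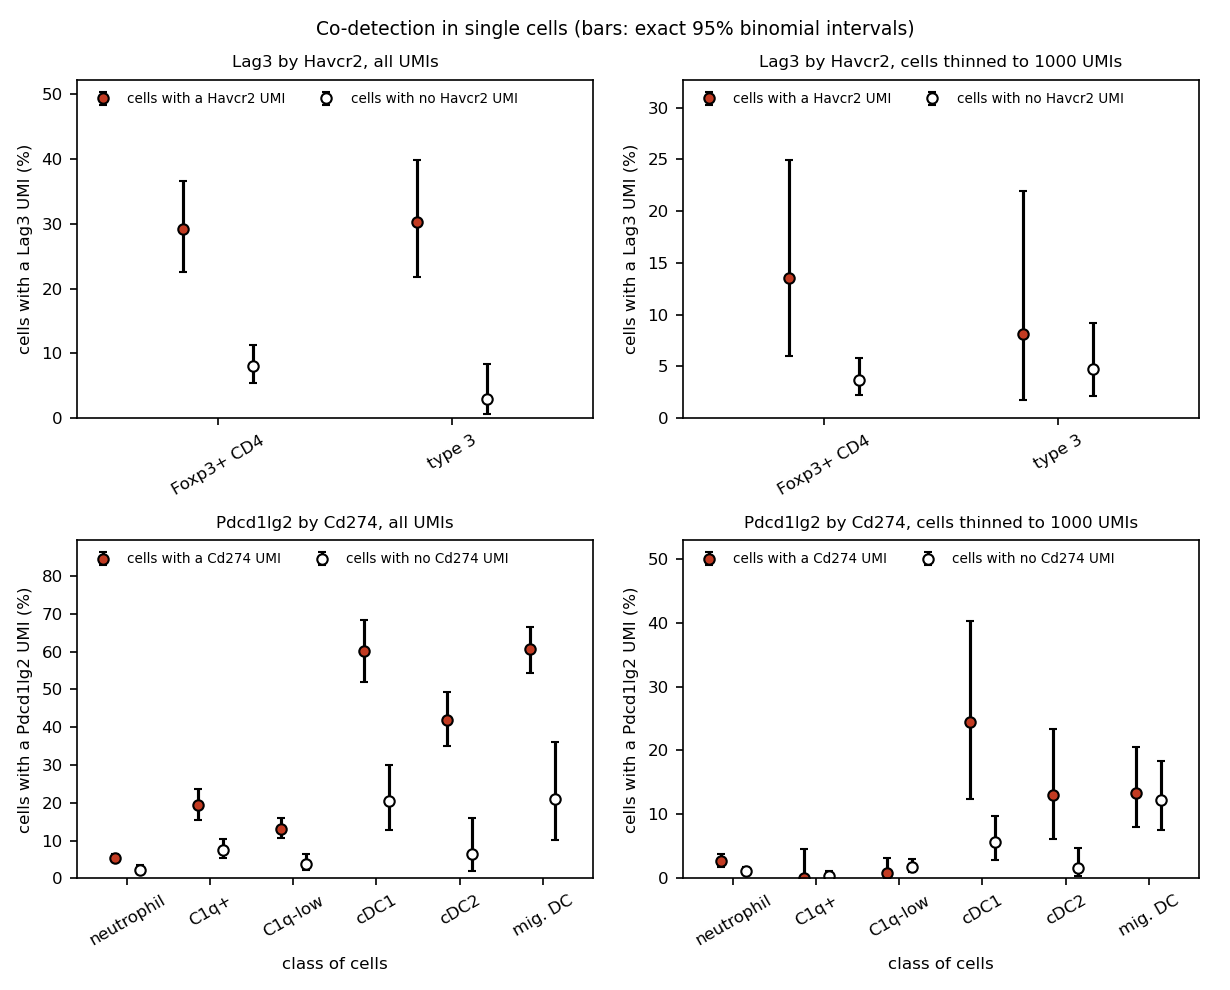
Share of cells with a Lag3 UMI by whether the cell held Havcr2 (upper panels) and with a Pdcd1lg2 UMI by whether it held Cd274 (lower panels), at full depth (left) and with each cell thinned to 1000 UMIs (right). Filled points are cells with the first gene, open points cells without it, and bars are exact 95% binomial intervals. After thinning the intervals stay apart for Havcr2 and Lag3 in Foxp3-positive cells and for Cd274 and Pdcd1lg2 in cDC1-like and cDC2-like cells.

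Across the 18 classes the genes with the most similar pattern were sought by the Pearson correlation of log2(CPM + 1), a description over classes that share libraries and depth. For Ctla4 they were Icos (r = 0.931), Crmp1 (0.916) and Ndfip1 (0.907), for Pdcd1 Rasl11a (0.946), Cxcr6 (0.937) and Chst2 (0.936), and for Tigit Ccr8 (0.923), Ndfip1 (0.913) and Klrg1 (0.906). For Lag3 they were Ech1 (0.843), Heatr5b (0.840) and Lgals1 (0.828), and for Havcr2 Il1r2 (0.863), Plxnd1 (0.847) and Piwil2 (0.841). Among the ligands, Cd274 was nearest to Mthfs (0.908), Cd80 (0.904) and Mcemp1 (0.879), Cd80 to Il1b (0.907), Cd274 and Dram1 (0.894), and Cd86 to Gngt2 (0.879) and Aif1 (0.867). Pdcd1lg2 was nearest to Tspoap1 (0.802), Rgs1 (0.801) and Fam126a (0.783), and Lgals9 to H2afj (0.834), Mafk (0.834) and Frrs1 (0.827). Between the 10 genes, Cd274 with Cd80 came first, followed by Pdcd1 with Ctla4 at 0.876, while Pdcd1 with its ligand Cd274 had -0.06.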

How the data were processed

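Sorted CD45+ and CD45- tumour cells were captured with a 3′ single-cell kit, per the labels' protocols. The authors deposited 1 matrix of raw UMI counts per gene and barcode. The submitters' processing notes name Cell Ranger 3.0.2 and the mm10 build. Counting settings are not given in the sources used here. No cell could be mapped to a sample.

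Cells needed at least 500 UMIs, 200 genes and at most 20% mitochondrial UMIs. Scrublet, run per library in scanpy 1.11.5, marked 50 of 14198 cells (0.352%), so its own cut-off had not worked. The cells with the highest Scrublet scores in each library were removed instead, 0.8% for each 1000 cells. Clusters came from 2000 variable genes, 30 principal components, 15 neighbours and Leiden resolution 1, and sub-clusters of T and of macrophage and dendritic cells from 20 components at resolution 1.5. Classes were named from 28 marker lists with at least 3 markers detected. The limits for naming, including the rule that left T11 unnamed, were set after the data were opened. Other software was Python 3.11.15, numpy 2.4.6, scipy 1.17.1, igraph 0.11.9, pandas 2.3.3 and matplotlib 3.10.9.

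UMIs were summed per class. Log2 ratios used CPM + 1, and thinning drew 1000 UMIs per cell, leaving out 531 of 10670 cells that were shallower. The named genes were the 10 members, the 3 genes most correlated with each (among genes with at least 100 UMIs), and, of each of 4 background lists, the 2 largest differences each way. One listed symbol was not found in the matrix. A few genes that this rule names are not reported here. Gzmb, Tox, Camp, Cmtm6, Hbb-bs, Arg1, Nos2 and the receptors and ligands set beside the pairs were named in addition. The members and lists were chosen with earlier results of these data known. The summing and comparison steps were tested on simulated data. Alternatives were other mitochondrial, doublet, pseudocount, UMI and resolution settings, leaving out each library, single libraries, gating per cell, leaving out cells with another lineage's markers and, added after seeing the data, moving or leaving out unnamed, naive-like and shallow sub-clusters.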

Additional observations from a re-analysis of the deposited data

How the results depend on the processing

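Of 777 recomputed gene values, 600 moved by less than their counting interval, 175 moved further and 2 with a ratio past 2-fold changed sign: Lag3 in Foxp3-positive over other CD4-like cells with sub-clusters at resolution 1 (-0.81), and Pdcd1 in migratory-DC-like over cDC1-like cells after thinning (-2.38). A further 22 values, whose main ratio was below 2-fold, changed sign, and 7 of them then passed 2-fold: Pdcd1 in migratory-DC-like over cDC2-like cells after thinning (-3.17), without library 4 (-1.60) and in library 3 alone (-1.57), Cd274 in cytotoxic over naive-like CD8 cells without library 3 (-1.82) and in library 4 alone (-2.05), and Pdcd1lg2 (-1.95) and Ctla4 (-1.59) in C1q-positive over C1q-low cells after thinning. The changes of sign of Pdcd1, Pdcd1lg2 and Ctla4 rested on few UMIs. Before thinning Pdcd1 had 14 UMIs in migratory-DC-like, 7 in cDC2-like and 4 in cDC1-like cells. Ctla4 had 36 in C1q-positive and C1q-low cells together. After thinning Pdcd1lg2 was seen in 3 C1q-positive and 16 C1q-low cells. The causes were not tested. Of 206 recomputed counts, 178 stayed within 1.5 times. Genes higher in Foxp3-positive cells numbered 5 at resolution 1, where Havcr2 had a log2 ratio of 0.64, and 4 with cells gated singly, where it had 0.89. In cytotoxic over naive-like CD8 cells the number higher was 8 with no UMI minimum and 2 after thinning, without library 4 or in library 3 alone, and the number lower was 1 after thinning, without library 3 or in library 4 alone. In migratory-DC-like over cDC1-like cells, 2 were higher and 1 lower after thinning. Over cDC2-like cells, 2 were higher without library 3 or 4, in either alone, or without cells bearing another lineage's markers. In neutrophils over macrophages, 2 were higher, Cd274 and Cd80, with a 10% mitochondrial limit, per-cell means, thinning, resolution 1, no library 1, no library 3, library 4 alone, or without such cells. Leaving out 1 library gave 7 to 9 genes higher in Foxp3-positive cells, 2 to 5 in cytotoxic CD8-like cells, 3 to 5 and 1 to 2 in the dendritic comparisons and 1 to 2 in neutrophils. Co-detected receptor pairs numbered 1 after thinning, 1 in library 3 and 4 in library 4, and ligand pairs 3 after thinning.

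No paired analysis was possible because each labelled group has 1 sample and no cell is mapped to one. Depth limits Tigit, with 37 UMIs in its highest class, and shares of cells with a UMI, which fall with thinning. Classes are rebuilt from the counts, and no library is paired with a genotype or a sort.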

Other observations

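Cd4, the neighbour of Lag3, was also seen outside T cells. It stood at 164 CPM in pDC-like cells and 64.7 CPM in C1q-positive macrophage-like cells, against 1.24 CPM in C1q-low monocyte-like cells and 250 CPM in Foxp3-positive cells. In pDC-like cells Cd4 was seen in 60.8% (50.4 to 70.6) of 97 cells with Lag3 and 22.7% (7.82 to 45.4) of 22 cells without it. In C1q-positive macrophage-like cells the shares were 37.9% (30.8 to 45.4) and 27.2% (23.8 to 30.8), at medians of 15303.5 and 11298 UMIs. After thinning to 1000 UMIs they were 17.4% and 12.6% in pDC-like cells, and 0 of 18 cells and 6.68% in macrophage-like cells. Their relation was not tested further.

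Plasma-like cells held Ctla4 and Cd274 UMIs. Ctla4 was 30.2 CPM (27.4 to 33.2) and was seen in 31.4% of 443 cells, and Cd274 was 33.4 CPM (30.4 to 36.6) and was seen in 48.3%, at a median of 32059 UMIs per cell. After thinning to 1000 UMIs the shares were 2.06% for Ctla4 and 4.12% for Cd274. In B-like cells, at a median of 4013.5 UMIs, Ctla4 was 5.88 CPM and Cd274 84.5 CPM.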
